A study of Homo sapiens with 4 samples.

Results

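The distal end of the long arm of human chromosome 9, band 9q34, was examined by Micro-C in SH-SY5Y cells with and without knockdown of the RNA- and DNA-binding protein TDP-43. The deposited table lists pairs of 50 kb bins, and a pair was a member when the middles of both of its bins lay on chromosome 9 above 133.4 Mb (hg38). This gave 504 of the 89239 listed pairs. Of these, 96 were contacts within a single bin and 408 were contacts between 2 different bins. The 96 bins were contiguous and covered 4.8 Mb, from chr9:133400001 to position 138200000. The region was chosen by its contact differences: pairs near chromosome ends, this one included, had lower counts in the knockdown libraries in this same comparison. The knockdown differences given here are therefore descriptions of the region and not independent evidence of its direction. SH-SY5Y is an established human neuroblastoma line with neuronal features. There were 2 libraries labelled control and 2 labelled TDP-43 knockdown (TDP43KD). The treatment text, which is shared by all 4 libraries, names lentiviral short hairpin constructs shNC and shTDP-43. It describes stable knockdown cells that were put through 2 weeks of puromycin (2 µg/mL, later 1 µg/mL), and says nothing of selection of the control cells. Whether the libraries of a group came from separate cultures or clones is not given in the labels, so the spread between them may be technical. Contact counts hold no expression, so cell identity was not checked with marker genes, and TDP-43 depletion itself cannot be read from these data.

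Micro-C cuts chromatin with micrococcal nuclease and joins the ends of nucleosomes that lie close together in space, so each count is a proximity ligation between 2 places in the genome. Contacts within a 50 kb bin report on local chromatin, whereas contacts between bins report on folding over larger distances, including the domains and loops that bring promoters near distal sequence. Distal 9q34 is a gene-rich band next to a telomere. It holds genes that matter in nerve cells, among them DBH (the enzyme that makes noradrenaline from dopamine), GRIN1 (the obligatory subunit of NMDA receptors), KCNT1 (a sodium-activated potassium channel), CACNA1B (the pore subunit of N-type calcium channels) and EHMT1 (a histone H3 lysine 9 methyltransferase whose loss causes Kleefstra syndrome).

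The RefSeq annotation (GRCh38.p14) placed 108 protein-coding genes over the region, a mean of 1.71 per bin against 0.865 per listed bin of the placed chromosomes. RefSeq promoter sequences were at hand for 126 transcription starts of 97 genes in the region. The 250 bases before those starts held a median of 23 CpG dinucleotides and 69.8% G+C, against 16 and 62% over 22199 starts of 15843 protein-coding genes. The GC box letters GGGCGG, or CCGCCC on the other strand, were in 69.0% of the 9q34 windows and in 53.7% of all windows. TDP-43 is known for binding UG- or TG-repeats, and TGTGTG or CACACA stood in 14 of the 126 windows (11.1%) and in 12.7% of all windows. These matches describe letters and are not binding sites. The 5 windows printed next belong to KCNT1 and to genes in bins up to 400 kb from its start bin. KCNT1 and TMEM250 share the pair with the lowest log2 fold change of the region, but not every bin of these genes differed in its contact with KCNT1. Each is the 250 bases before the start, 5′ to 3′ on the strand of the gene, with CpG dinucleotides in capitals, and for TMEM250, which has 2 listed starts, the one furthest upstream was used. They lie at chr9:135701935-135702184 (KCNT1, plus strand), chr9:135907547-135907796 (CAMSAP1, minus strand), chr9:135961374-135961623 (UBAC1, minus strand), chr9:136095290-136095539 (NACC2, minus strand) and chr9:136118876-136119125 (TMEM250, minus strand).
KCNT1: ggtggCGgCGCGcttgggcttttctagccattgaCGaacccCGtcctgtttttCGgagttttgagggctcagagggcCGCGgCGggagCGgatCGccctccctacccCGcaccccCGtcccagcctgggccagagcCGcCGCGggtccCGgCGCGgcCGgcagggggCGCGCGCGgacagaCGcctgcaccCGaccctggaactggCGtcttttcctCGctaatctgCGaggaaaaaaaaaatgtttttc
CAMSAP1: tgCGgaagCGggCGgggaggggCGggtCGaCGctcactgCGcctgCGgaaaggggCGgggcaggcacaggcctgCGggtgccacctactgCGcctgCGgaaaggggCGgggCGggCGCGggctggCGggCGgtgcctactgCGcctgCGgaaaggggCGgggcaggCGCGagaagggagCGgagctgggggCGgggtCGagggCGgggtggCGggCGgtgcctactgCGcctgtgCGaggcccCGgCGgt
UBAC1: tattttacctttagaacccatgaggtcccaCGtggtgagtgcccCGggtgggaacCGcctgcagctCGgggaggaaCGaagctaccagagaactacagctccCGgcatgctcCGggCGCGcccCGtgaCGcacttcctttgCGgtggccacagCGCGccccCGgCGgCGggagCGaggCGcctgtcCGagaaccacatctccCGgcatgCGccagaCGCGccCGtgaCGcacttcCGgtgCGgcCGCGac
NACC2: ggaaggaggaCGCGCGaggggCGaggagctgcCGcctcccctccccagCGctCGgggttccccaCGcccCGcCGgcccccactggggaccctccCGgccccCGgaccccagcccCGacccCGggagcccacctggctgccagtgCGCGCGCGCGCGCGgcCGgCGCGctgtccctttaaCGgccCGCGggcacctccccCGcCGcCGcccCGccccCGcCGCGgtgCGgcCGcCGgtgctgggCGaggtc
TMEM250: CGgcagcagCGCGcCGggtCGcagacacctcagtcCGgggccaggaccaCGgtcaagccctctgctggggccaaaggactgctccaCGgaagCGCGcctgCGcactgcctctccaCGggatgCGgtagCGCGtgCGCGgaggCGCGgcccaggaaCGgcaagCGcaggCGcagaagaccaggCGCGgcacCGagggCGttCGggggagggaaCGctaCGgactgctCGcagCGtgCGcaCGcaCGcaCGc
The windows hold 29, 33, 30, 38 and 35 CpG dinucleotides in that order, all above the median of 16 over all windows. None of the 5 holds TGTGTG or CACACA, and the GC box letters are in those of CAMSAP1 and NACC2.

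The listed pairs held 158400914 (control 1), 163147992 (control 2), 115168160 (TDP43KD 1) and 142424414 (TDP43KD 2) contacts. The 504 pairs of 9q34 held 1842450 and 2032420 of them in control and 1109389 and 1405295 in knockdown, with 122 counts in the lowest single value. Levels are given as CPM, the count of a pair per library total after TMM scaling, which matches libraries on the bulk of the pairs, and the values of both libraries of a group are printed in place of a mean. Differences are log2 fold changes of knockdown over control with standard errors (SE) from edgeR's quasi-likelihood fit over all listed pairs. A pair is called lower or higher when its Benjamini-Hochberg adjusted p over all 89239 pairs was under 0.05. Across the whole table the fold change fell with the abundance of the pair, and the authors' own fold changes have that trend taken out. A second fit with the trend removed is therefore given beside the TMM fit throughout, and the table-wide median was 0.02 (TMM) and 0.01 (trend removed) on the log2 scale.

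In control cells distal 9q34 had some of the highest within-bin counts of the table. Levels were scaled per library only, with no correction for copy number, base composition or how well reads map. Differences in level between places may hold all of these, which was not tested. The median within-bin level was 105 CPM, above that of 97.6% of all listed within-bin pairs, whose median was 7.35 CPM. Among 41 chromosome ends only 17q was higher, with a median of 126 CPM. The other ends were set by a fixed distance from their outermost listed bin, and 9q by its limit of 133.4 Mb. The level changed in broad waves along the region. The top was in the body of RXRA, the retinoid X receptor alpha that pairs with many nuclear receptors, with 206 and 234 CPM in the control libraries at chr9:134350001-134400000. A neighbouring RXRA bin (chr9:134400001-134450000; 177 and 196 CPM) and the bin of GPSM1, DNLZ, CARD9 and SNAPC4 (chr9:136350001-136400000; 180 and 202 CPM) followed. At the bottom was the last listed bin of the chromosome, which has no protein-coding gene, with 3.61 and 3.80 CPM. Next came a bin inside CACNA1B (chr9:137900001-137950000; 21.0 and 19.6 CPM) and one inside CAMSAP1, which codes for a protein of microtubule minus ends (chr9:135850001-135900000; 35.9 and 41.2 CPM). Over the 96 bins the number of genes per bin and the log2 control level had a Pearson correlation of 0.33. It is given as a description, since neighbouring bins can share genes and all bins come from the same libraries. The 16 bins with at least 4 genes had a median of 129 CPM and the 16 bins without a gene one of 98.0 CPM.

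**Figure D1:**
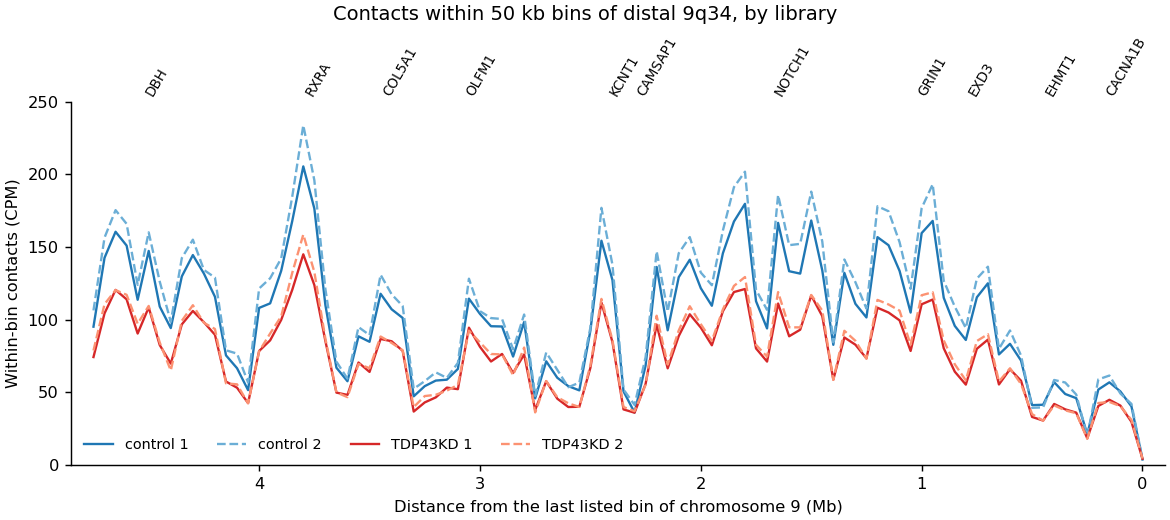
Within-bin contacts (CPM) of the 96 bins in each of the 4 libraries, plotted against the distance from the last listed bin of chromosome 9 (Mb); gene names stand over the middle of the bins that hold the gene. Both knockdown lines run under both control lines over nearly the whole region, with the gap closing at the CAMSAP1 trough and at the last bin, and control levels reach 206 and 234 CPM in the RXRA bin.

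Local contacts were lower in the knockdown libraries along almost all of the region. The median within-bin level was 103 CPM in control 1, 109 CPM in control 2, 78.3 CPM in TDP43KD 1 and 79.8 CPM in TDP43KD 2. In 94 of the 96 bins both knockdown values lay under both control values, whereas 28.5% of all listed within-bin pairs did so. With TMM, 93 of the 96 bins were called lower and 0 higher, beside 14.3% lower and 7.40% higher over all listed within-bin pairs. The log2 fold changes ran from -0.67 to 0.17 with a median of -0.46, while the median over all within-bin pairs was 0.02. With the trend removed, 56 of the 96 bins were called lower and 0 higher, beside 5.11% and 7.90% over all. The median was then -0.14, with a range from -0.38 to 0.10, against 0.03 over all within-bin pairs. All 56 were also among the 93.

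The deepest bin lay inside EXD3, a gene named for its exonuclease domain. Its level at chr9:137350001-137400000 was 85.9 and 94.1 CPM in control and 55.2 and 58.1 CPM in knockdown. The log2 fold change was -0.67 (SE 0.06) with TMM and -0.38 with the trend removed, the lowest value in the region in both fits. The next bin towards the centromere, with NRARP and another part of EXD3, went from 95.6 and 109 to 64.1 and 69.2 CPM (log2 fold change -0.62, trend removed -0.30). KCNT1 held the second lowest value with TMM. Its bin at chr9:135750001-135800000 read 127 and 138 CPM in control and 84.5 and 85.7 CPM in knockdown, a log2 fold change of -0.64 (SE 0.06; trend removed -0.27). A gene-free bin beside NOTCH1 (chr9:136550001-136600000) read 133 and 151 CPM in control and 88.5 and 94.7 CPM in knockdown, also a log2 fold change of -0.64 (trend removed -0.25). The RXRA summit, by contrast, differed by -0.53 with TMM and by only -0.04 with the trend removed, which was not called. So the bins with the densest control contacts were not those with the largest differences once abundance was taken into account.

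Only 3 bins were not called lower with TMM. The CAMSAP1 trough read 35.9 and 41.2 CPM in control and 35.8 and 36.9 CPM in knockdown (log2 fold change -0.08, SE 0.06). The groups overlapped there only in part, since control 1 lay between the knockdown libraries. The low CACNA1B bin read 21.0 and 19.6 CPM in control and 18.1 and 17.9 CPM in knockdown (log2 fold change -0.17, SE 0.07). The last listed bin read 3.61 and 3.80 CPM in control and 4.12 and 4.24 CPM in knockdown (log2 fold change 0.17, SE 0.15). These are the 3 bins with the fewest contacts in control.

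**Figure D2:**
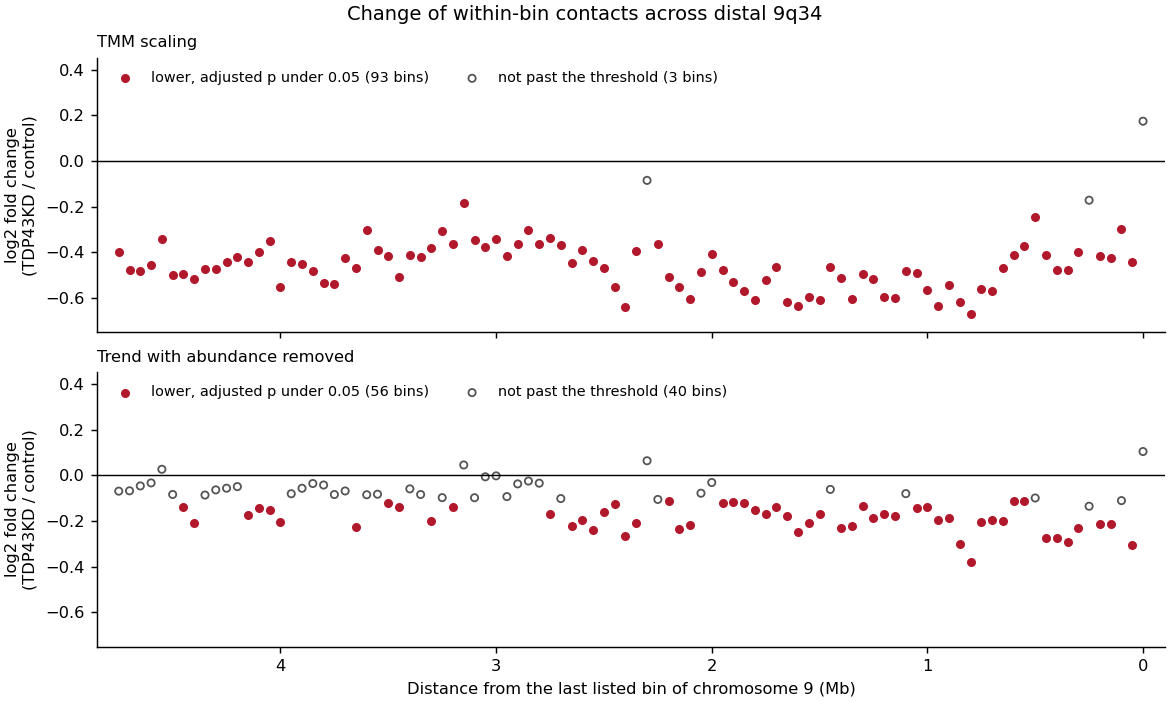
Log2 fold change (TDP43KD over control) of within-bin contacts for each of the 96 bins against the distance from the last listed bin (Mb), with TMM scaling above and with the abundance trend removed below; filled points passed an adjusted p of 0.05 and open points did not. With TMM 93 bins are filled and the 3 open ones lie near 0; with the trend removed 56 are filled, and most of the 40 open bins lie in the part of the region further from the chromosome end.

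The within-bin difference moved with the control level, in the region as in the table as a whole. Over the 96 bins the Pearson correlation of log2 control CPM with the log2 fold change was -0.79 (Spearman -0.70) with TMM and 0.01 (Spearman 0.22) with the trend removed; both levels come from the same libraries, so these are descriptions. Setting the bins beside others of like control level narrows the gap to the rest of the genome. Of 1314 listed within-bin pairs with 100 to 200 CPM in control, 99.5% were called lower with TMM and the median was -0.42. The 53 bins of 9q34 in that class were all called lower, with a median of -0.50. With the trend removed the called shares were 34.2% of all and 29 of 53 (54.7%) in 9q34. Between 50 and 100 CPM, the medians were -0.26 over 3406 pairs and -0.41 over the 32 bins of 9q34, and with the trend removed 16.3% and 22 of the 32 were called lower. Between 20 and 50 CPM, they were -0.08 over 7164 pairs and -0.34 over 9 bins, of which 7 were called lower beside 26.8% of all. In each of these classes the 9q34 median was lower than that of all bins of like level. Genes per bin and the log2 fold change had a Pearson correlation of -0.39 with TMM and -0.17 with the trend removed over the 96 bins. At the extremes, bins with at least 4 genes had a lower median than gene-free ones. The 16 bins with at least 4 genes had a median log2 fold change of -0.53 (trend removed -0.17), and 14 were called lower with the trend removed, while the 16 bins without a gene had -0.36 (-0.07) and 5 such calls. The gene-rich bins also had the higher control levels. Genes were unevenly placed as well, with 3.55 per bin from 136400001 to 137400000 and 0.5 per bin from 134400001 to 135400000. How far level or position accounts for the gap was not tested.

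Contacts between bins were lower at every distance from 50 to 450 kb. Of the 408 pairs, 114 were called lower with TMM and 136 with the trend removed, and 0 higher. Over all listed pairs between bins of one chromosome, 5.83% were lower and 3.76% higher with TMM, and 6.99% lower and 1.44% higher without the trend. Neighbouring bins, 50 kb apart, had median levels of 12.6 and 13.2 CPM in control and 10.5 and 10.8 CPM in knockdown. Of these 94 pairs, 53 were called lower (background 5.64%), with a median log2 fold change of -0.25, against 0.09 over all pairs at that distance, and with the trend removed 46 (background 5.33%), with -0.24. At 100 to 150 kb, 25 of 156 pairs were called lower (background 4.62%), with a median of -0.24, and with the trend removed 40 (background 6.60%), with -0.30. At 200 to 450 kb the median level was 2.59 CPM in control and 1.93 CPM in knockdown. There 36 of 147 pairs were called lower (background 7.40%), with a median of -0.35 (all pairs -0.11), and with the trend removed 50 (background 10.6%), with -0.42 (all pairs -0.19). Of the 11 pairs at 500 kb or more, 0 were called lower by either fit (background 12.4% and 17.3%). In 7 of the 11 both knockdown values lay under both control values, and 409 of all 905 listed pairs at that distance did so. The median of the 11 was -0.27, and at about 2.06 CPM in control they are among the thinnest counts of the region.

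**Figure D3:**
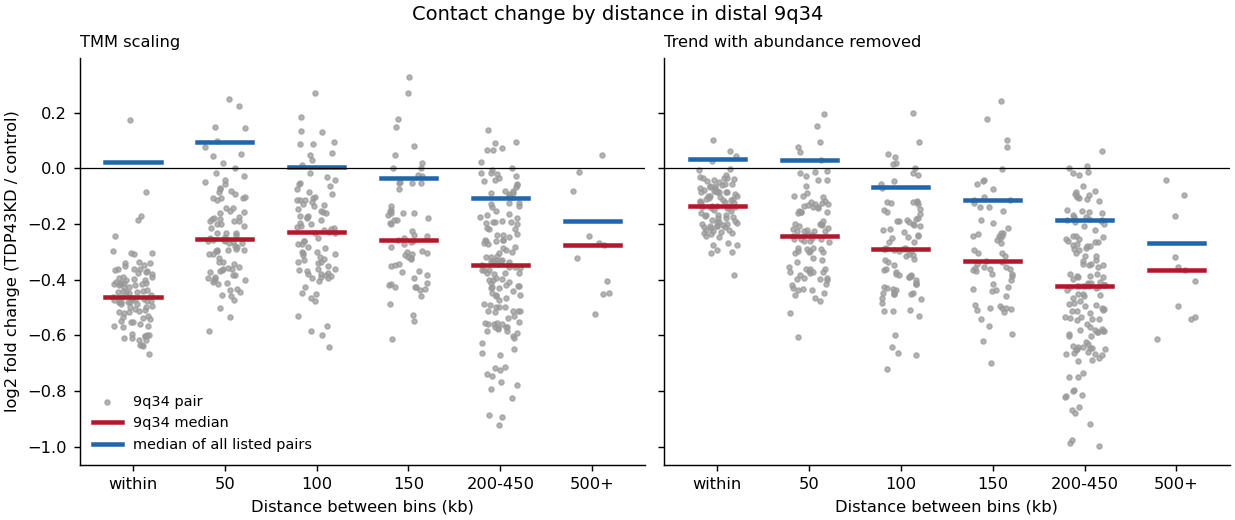
Log2 fold change (TDP43KD over control) of every 9q34 pair (grey points) by the distance between its bins (kb; "within" is one bin), with TMM scaling on the left and the abundance trend removed on the right; red bars are 9q34 medians and blue bars the medians of all listed pairs at that distance. The red bars lie under the blue ones in every class; with TMM the lowest red bar is that of within-bin contacts (-0.46), and with the trend removed it is that of 200 to 450 kb (-0.42).

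Over all distances 207 pairs were called lower with TMM (41.1% of 504; background 10.5%) and 192 with the trend removed (38.1%; background 5.96%). Without TDP43KD 1 these counts were 120 and 50. With the trend removed they were 120 without control 2 and 90 without TDP43KD 2. Between bins alone the 114 and 136 calls became 31 and 20 without TDP43KD 1, 70 and 76 without control 2, and 59 and 51 without TDP43KD 2. Within bins the 93 calls became 89 to 94 with TMM, and the 56 with the trend removed became 30 without TDP43KD 1 and 39 to 66 without another library. Both knockdown values lay under both control values in 368 of the 504 pairs, and 26.3% of all listed pairs did so. The fits shared 163 pairs, which is 78.7% of the first set and 84.9% of the second, and over all listed pairs 5.11% were lower in both. By edgeR 0 pairs were called higher in either fit (background 5.76% and 4.98%), and 0 by DESeq2 or in the authors' deposited table. At an unadjusted p under 0.05 edgeR placed 1 pair higher in the TMM fit and 0 in the other, against 289 and 308 lower. The pair higher at the unadjusted level joined neighbouring bins, ARRDC1/EHMT1 and EHMT1, with 819 and 808 counts in control and 808 and 883 in knockdown. Its log2 fold change was 0.25 (SE 0.12).

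The lower contacts were spread unevenly along the region. In consecutive stretches of 1 Mb, starting at the limit, 21 of 68, 19 of 82, 29 of 91, 45 of 77 and, in the shorter last stretch, 2 of 35 between-bin pairs were called lower with the trend removed. A further 55 pairs joined different stretches, and 20 of them were called. The fourth stretch, from 136400001 to 137400000, had the most genes (58 overlapping) and the largest share of lower pairs (58.4%). Without TDP43KD 1 the counts were 0, 1, 6, 11 and 0, without control 2 they were 12, 8, 17, 26 and 1, and without TDP43KD 2 they were 6, 5, 13, 19 and 1, with the fourth stretch the highest in each. It runs from SNAPC4 and NOTCH1 through the lipocalin genes and GRIN1 to EXD3, and 18 of its 20 bins were also called lower within the bin. The last stretch had another pattern. It holds EHMT1 and CACNA1B, and 14 of its 16 bins were called lower with TMM and 12 with the trend removed, yet only 2 of its 35 between-bin pairs were called (5.71%), close to the background of 6.99%. Its control levels were lower, with a within-bin median of 54.0 CPM against 139 CPM in the fourth stretch. The second stretch, around COL5A1 and OLFM1, had the fewest genes (5) and the smallest share of bins called with the trend removed (5 of 20).

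**Figure D4:**
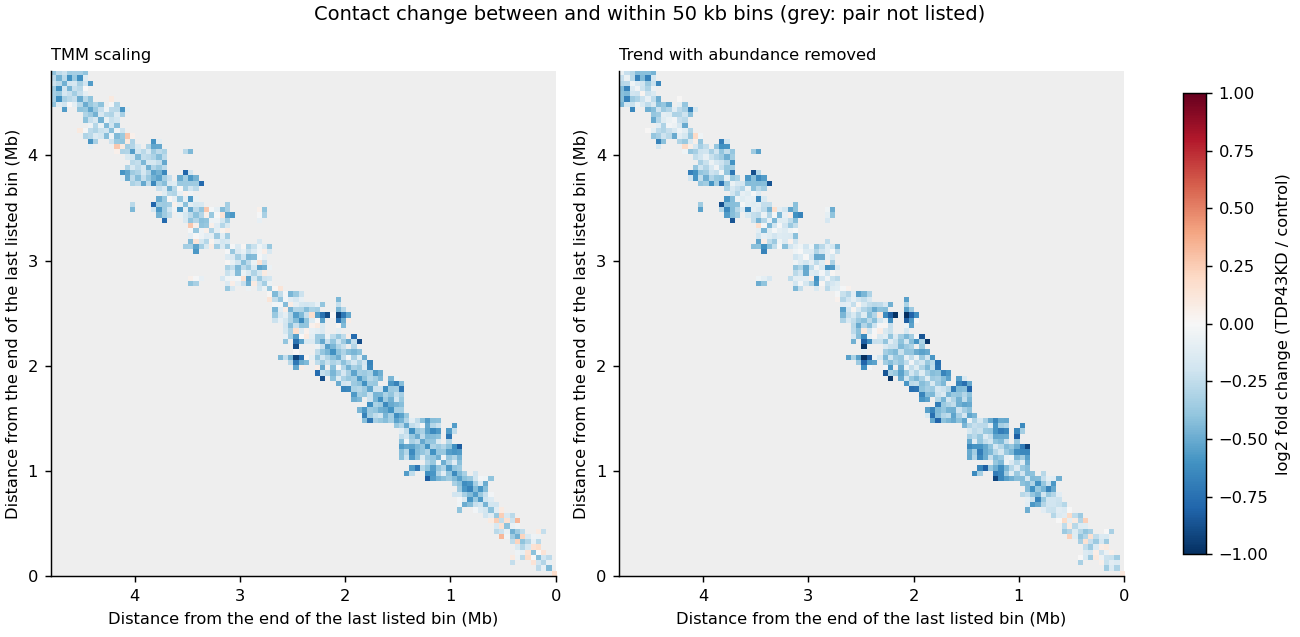
Log2 fold change (TDP43KD over control) of each listed pair of 50 kb bins in distal 9q34, with both axes giving the distance from the end of the last listed bin (Mb), for TMM scaling (left) and with the abundance trend removed (right); grey squares are pairs not listed. Nearly all squares are blue (464 of 504 negative with TMM, 481 with the trend removed); the darkest lie off the diagonal between about 2 and 2.5 Mb from the end, around KCNT1, and pale squares cluster in the last 0.5 Mb.

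KCNT1 took part in several of the largest differences between bins. Of the 10 called pairs with the largest falls and groups that did not overlap, 4 involved a KCNT1 bin and 2 of those joined KCNT1 to TMEM250, which codes for a transmembrane protein. The bin that holds the start of KCNT1 and SOHLH1 (a transcription factor of germ cells; chr9:135700001-135750000) and the TMEM250 bin 400 kb away (chr9:136100001-136150000) shared 630 and 607 counts in control and 261 and 311 in knockdown. In CPM these were 4.12 and 3.94 against 2.16 and 2.09. The log2 fold change was -0.92 (SE 0.17), and -0.999 with the trend removed, the lowest of all 504 pairs in both fits. The second KCNT1 bin went with it, from 3.56 and 3.11 to 1.89 and 2.09 CPM with TMEM250 (log2 fold change -0.74, SE 0.19).

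Seen from the KCNT1 start bin, 14 partner bins were listed and 7 were called lower with TMM (between-bin background 5.83%). Some other bins had a larger share, such as the ABCA2 bin with 8 of 11. The control track was not a smooth decay with distance. In control it dipped to 1.86 and 1.92 CPM at 350 kb, in the bin with the start of NACC2 (a BTB-domain transcriptional repressor), and came back to 4.12 and 3.94 CPM at TMEM250, 50 kb further on. In knockdown the same step was from 1.95 and 1.84 to 2.16 and 2.09 CPM. The difference was largest at 300 kb (the other NACC2 bin: 1.84 and 2.49 CPM in control, 1.04 and 1.28 CPM in knockdown; log2 fold change -0.89, SE 0.23) and at 400 kb. It was -0.74 (SE 0.18) at 250 kb, the bin of UBAC1, which codes for a subunit of a ubiquitin ligase complex, and -0.72 (SE 0.20) at 450 kb, a bin of LHX3, a LIM-homeodomain factor of pituitary and motor neuron development. In between, the NACC2 start bin at 350 kb showed no difference (log2 fold change 0.00, SE 0.22). Nearer by, the CAMSAP1 trough at 150 kb had 2.63 and 2.88 CPM in control and 3.19 and 3.05 CPM in knockdown (log2 fold change 0.18, SE 0.18; not called). On the other side, towards the centromere, only the neighbouring SOHLH1/LCN9 bin was called lower (-0.30, SE 0.08), and the bins at 100, 150 and 200 kb were not. The contact of KCNT1 with TMEM250 over that with the CAMSAP1 trough is a ratio of counts within a library and needs no scaling. It was 1.56 and 1.37 in control and 0.676 and 0.687 in knockdown, so the more distant partner had more contacts in both control libraries and fewer in both knockdown libraries. This ratio was chosen after the values were seen.

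**Figure D5:**
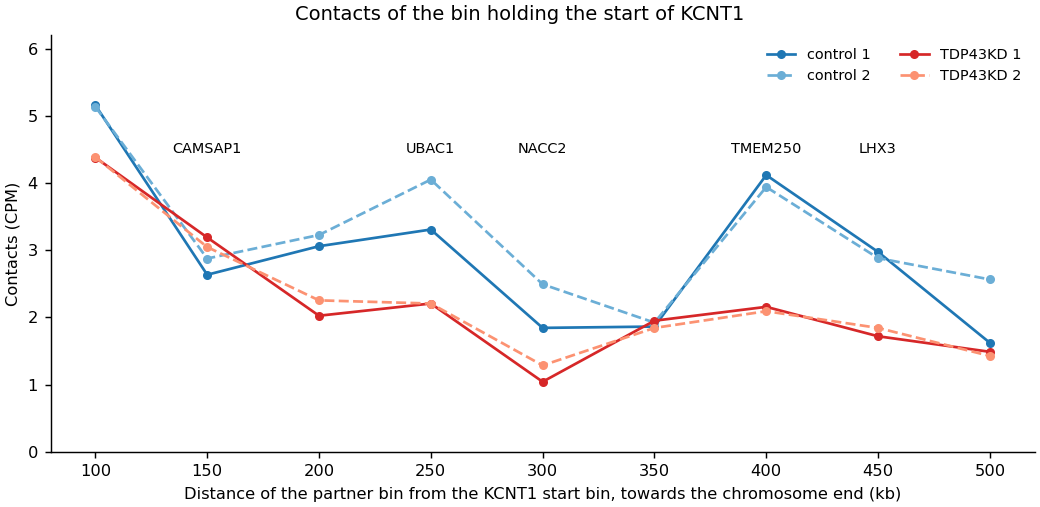
Contacts (CPM) between the bin with the start of KCNT1 and the bins 100 to 500 kb further towards the chromosome end, in each of the 4 libraries; names mark genes in the partner bins. Both control lines rise again to 4.12 and 3.94 CPM at TMEM250 (400 kb), where both knockdown lines stay at 2.16 and 2.09 CPM, while all 4 lines meet at 350 kb.

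The other named pairs lay 300 to 350 kb apart. UBAC1 with CCDC187/GPSM1 went from 2.30 and 2.68 to 1.21 and 1.48 CPM (log2 fold change -0.89, SE 0.22). GPSM1 modulates heterotrimeric G proteins, and the neighbouring pair, CAMSAP1/UBAC1 with CCDC187, had -0.77 (SE 0.23). Without control 1 that value was -0.36, and it was not called without control 1, TDP43KD 1 or TDP43KD 2. In the gene-dense stretch, the bin of LCN12, PTGDS and LCNL1 (lipocalins, of which PTGDS makes prostaglandin D2) and that of CIMIP2A, STPG3 and NELFB (NELFB is a subunit of the negative elongation factor) went from 1.78 and 2.38 to 1.01 and 1.33 CPM, a log2 fold change of -0.83 (SE 0.23). PHPT1/MAMDC4/EDF1 with GRIN1/LRRC26/TMEM210 had -0.73 (SE 0.23), and -0.43 without control 2, and of the 4 fits with a library left out it was called only in that without control 1. RXRA with COL5A1, the gene of a chain of type V collagen, went from 2.56 and 2.23 to 1.19 and 1.57 CPM (-0.79, SE 0.22), and a gene-free bin beyond RXRA with COL5A1 had -0.78 (SE 0.23). The last value was -0.46 without TDP43KD 1, -0.50 without control 2 and -1.20 without TDP43KD 2. These calls were sensitive to which libraries were used. Without TDP43KD 1, 2 of the 10 remained called, KCNT1 with TMEM250 at 400 kb (log2 fold change -0.95) and KCNT1 with UBAC1 (-0.74). The log2 fold changes of the other 8 then ran from -0.86 to -0.46. Of the 10, 9 were called without control 1, 6 without control 2 and 8 without TDP43KD 2. The pair of KCNT1 and TMEM250 at 400 kb and that of KCNT1 and UBAC1 were called whichever single library was left out.

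The 5 strongest contacts of control cells at 200 kb or more are given by control level, whatever their difference. The strongest at 200 kb or more joined the second WDR5 bin (WDR5 is a core subunit of histone H3 lysine 4 methyltransferase complexes) to an RXRA bin 250 kb away. It had 16.8 and 17.0 CPM in control and 13.7 and 14.5 CPM in knockdown, a log2 fold change of -0.26 (SE 0.08), called with and without the trend. The second, across VAV2 at 200 kb, had 12.7 and 14.9 against 11.3 and 11.7 CPM (-0.26, SE 0.08). The third joined the same WDR5 bin to the RXRA summit 200 kb away, with 7.62 and 9.67 against 6.18 and 7.28 CPM (-0.36, SE 0.11; called in both fits). The fourth, MYMK/ADAMTSL2 with SARDH at 200 kb, had 8.47 and 8.49 against 7.41 and 7.48 CPM (-0.19, SE 0.10), and the fifth, OLFM1 with a gene-free bin 250 kb away, 7.22 and 7.33 against 5.76 and 6.72 CPM (-0.22, SE 0.11). Neither of these last pairs was called. Both knockdown values lay under both control values in all 5. The same held for 109 of the 158 pairs of 9q34 at 200 kb or more and for 3230 of all 8704. The median over all 9q34 pairs at 200 to 450 kb was -0.35.

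Neighbouring bins were compared with their own local contacts by dividing the contact between them by the geometric mean of both within-bin counts, a ratio in which library scaling cancels. The median log2 ratio over the 94 neighbours was -3.02 and -3.04 in control and -2.80 and -2.81 in knockdown. Both knockdown values lay over both control values at 80 of the 94 links and under them at 0. The rise, 0.20 in the median, was close to the 0.18 over all listed neighbours, of which 52.9% had both knockdown values higher. The weakest links in control mark steps in the contact map. They were the end of RXRA with the gene-free bin after it (-4.24), VAV2 with BRD3 (-3.96; BRD3 is a BET bromodomain protein) and EHMT1 with CACNA1B (-3.85). The link of EHMT1 with CACNA1B read -3.82 and -3.87 in control and -3.05 and -3.33 in knockdown, and its rise of 0.66 was the largest of the region. That of RXRA rose by 0.14, from -4.19 and -4.28 to -4.09 and -4.10. These links were picked after their values were seen.

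By gene, all 108 protein-coding genes overlapped at least 1 pair called lower with TMM, and 105 did with the trend removed. Over 18703 protein-coding genes with a listed bin, 45.7% and 25.3% did. The 3 others were FCN1, PPP1R26 and PIERCE1. With the trend removed 87 genes had a bin of their own called lower within the bin, beside 15.2% of all, and the gene lists that follow were assembled with earlier results of these data known. Bins are shared by several genes, so the genes of a bin carry 1 value, and where a gene covers several bins the value given is that of its bin with the largest within-bin difference. Over the whole region 93 of the 96 bins were called lower with TMM and 56 with the trend removed. The within-bin backgrounds beside the lists are over all listed within-bin pairs, whose control median was 7.35 CPM. Among those with 100 to 200 CPM in control, 99.5% were called lower with TMM and 34.2% with the trend removed. No list was tested against any of these counts or shares.

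A list of 8 genes was drawn up for neuronal excitability, transmitters and synapses. Of its 17 bins, 16 were called lower with TMM and 11 with the trend removed (background 14.3% and 5.11%), with a median of -0.44. The list also holds STPG3, which is not a gene of these kinds, and its bin is among the 17 and was called in both fits. DBH covers 2 bins. The bin with the end of the gene read 147 and 160 CPM in control and 108 and 109 CPM in knockdown, a log2 fold change of -0.50 (SE 0.06), and -0.08 with the trend removed, which was not called. The bin with the start of DBH and most of its length read 114 and 124 CPM in control and 90.4 and 97.1 CPM in knockdown (-0.34, SE 0.06; trend removed 0.03, not called). GRIN1 shares its bin with LRRC26, an auxiliary subunit of BK potassium channels, and with ANAPC2, a core subunit of the anaphase-promoting complex. That bin read 160 and 177 CPM in control and 110 and 117 CPM in knockdown (-0.57, SE 0.06; trend removed -0.14, called). NSMF, which signals from NMDA receptors to the nucleus, had 125 and 136 against 86.2 and 89.9 CPM (-0.57; trend removed -0.20). In CACNA1B the bin with the largest difference had 40.2 and 41.9 against 29.5 and 30.9 CPM (-0.44; trend removed -0.30), and its 6 bins had a median of -0.41. Beside the between-bin background of 5.83% with TMM, KCNT1 had 9 of 25 between-bin pairs called lower and CACNA1B 0 of 17, a number close to that background.

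Of 27 bins of 14 chromatin and transcription genes, 27 were called lower with TMM and 21 with the trend removed (background 14.3% and 5.11%). Their median was -0.48. The list also holds UBAC1, ANAPC2 and TRAF2, which act in ubiquitin ligases or receptor signalling. SNAPC4 is a subunit of the complex that activates small nuclear RNA genes. It lies in a bin with 180 and 202 CPM in control and 121 and 129 CPM in knockdown (-0.61, trend removed -0.15). NACC2 had 129 and 146 against 88.6 and 92.5 CPM (-0.60; trend removed -0.22) and the second bin of WDR5 had 108 and 121 against 78.3 and 78.1 CPM (-0.55; trend removed -0.21), while its first had -0.35 (trend removed -0.15). EHMT1 covers 5 bins that ran from -0.48 to -0.24 with a median of -0.41, and 4 of the 5 were called with the trend removed. Its lowest bin had 48.7 and 56.6 against 38.1 and 37.4 CPM (-0.48, SE 0.06; trend removed -0.29). Between bins 1 of the 19 pairs of EHMT1 was called lower in each fit, close to the background of 5.83% with TMM and 6.99% with the trend removed. Inside the EHMT1 gene body, 9 between-bin pairs ranged from -0.36 to 0.33, and in CACNA1B 10 ranged from -0.30 to 0.18.

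The 3 Notch genes covered 5 bins, all called lower in both fits (background 14.3% and 5.11%), with a median of -0.61. All 5 had control levels between 100 and 200 CPM. Of all listed within-bin pairs at that level, 99.5% were called lower with TMM and 34.2% with the trend removed. NOTCH1, the receptor, read 167 and 186 CPM in control and 111 and 119 CPM in knockdown (-0.62, SE 0.06; trend removed -0.18). EGFL7, a secreted protein of endothelium that binds Notch, shares a bin with AGPAT2 (an enzyme of glycerolipid synthesis), which read 168 and 188 against 117 and 117 CPM (-0.61; trend removed -0.17). NRARP, a feedback inhibitor of Notch signalling, is in the bin beside the EXD3 minimum given with it. Of the 16 between-bin pairs of NOTCH1, 4 were called with TMM and 7 with the trend removed (background 5.83% and 6.99%).

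The lipocalin genes, small secreted carriers of lipophilic molecules, numbered 12 in 7 bins. Of these bins 7 were called with TMM and 6 with the trend removed (background 14.3% and 5.11%), with a median of -0.47. The bin of LCN12, LCNL1 and PTGDS read 157 and 178 against 108 and 114 CPM (-0.59; trend removed -0.17), and that of C8G, a chain of complement component C8, read 101 and 108 against 73.3 and 73.0 CPM (-0.52; trend removed -0.19). For 8 cilium, microtubule and vesicle genes, 10 of 11 bins were called with TMM and 9 with the trend removed (same background), with a median of -0.52. The bin of TPRN and TUBB4B (a beta-tubulin) read 168 and 193 against 114 and 119 CPM (-0.63; trend removed -0.19), and that of the GTPase-like RABL6 and of PHPT1, a histidine phosphatase, 132 and 141 against 87.7 and 92.3 CPM (-0.60; trend removed -0.22). The bin of ABCA2, a lipid transporter, and ENTPD2, an ectonucleotidase, read 151 and 175 against 105 and 110 CPM (-0.60, and -0.18 with the trend removed). Both genes are in a list of 10 drawn up as signalling adaptors and enzymes, not all of which act in signalling. That list had 16 of 16 bins called with TMM and 11 with the trend removed (same background).

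For 8 genes drawn up as extracellular matrix and secreted defence 14 of 14 bins were called with TMM and 6 with the trend removed. The background was 14.3% and 5.11%, and the median of the 14 bins was -0.44. The list also holds CARD9, which is not secreted. COL5A1 had -0.51 (trend removed -0.14, called) in its most changed bin, and ADAMTSL2, a secreted protein of the matrix, had -0.48 (trend removed -0.05, not called). A list of 6 genes drawn up as mitochondrial had 8 of 8 bins called with TMM and 5 with the trend removed (same background). Its median was -0.48, but not all of its members belong to mitochondria. PMPCA, a subunit of the peptidase that processes proteins imported into mitochondria, had -0.52 (trend removed -0.17), and SARDH, the mitochondrial sarcosine dehydrogenase, shares the bin with the end of DBH. DPP7, a peptidase of vesicles and lysosomes, had -0.49 (trend removed -0.14) and SLC2A6, a hexose transporter of lysosomes, had -0.48 (trend removed -0.07, not called).

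Measured against chromosome 9 alone, which needs no scaling between chromosomes, the region lost share. It holds 4.80% of the listed bins of the chromosome but 23.9 and 25.3% of its listed within-bin contacts in control, and 20.1 and 20.5% in knockdown. For between-bin contacts the shares were 30.8 and 32.0% in control and 27.3 and 27.7% in knockdown. The groups did not overlap in either share. These shares were not corrected for abundance. The median within-bin control level was 105 CPM in 9q34 and 6.83 CPM on the rest of chromosome 9. How far this accounts for the lower shares was not tested. Within the region, within-bin contacts made up 80.8 and 80.9% of all contacts in control and 78.4 and 78.5% in knockdown. That fall is uncorrected too and was not set beside other places. With the trend removed, the median was lower between bins (-0.33) than within bins (-0.14). On the rest of chromosome 9, 8.55% of 3299 pairs were called lower with TMM and 3.27% with the trend removed, against 41.1% and 38.1% in the region. Over 40 other chromosome ends, set by a fixed distance from their outermost listed bin and not by a limit like that of 9q, the shares were 29.4% and 24.1% of 11032 pairs. Among the 41 ends 9q was the sixth by that share with TMM and the seventh with the trend removed, with 54.5% at the first, 1p, with TMM. The difference between this end and other ends was not tested, since the region was chosen with these values known.

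At the limit itself nothing changed abruptly. The bin just inside (STKLD1, REXO4 and ADAMTS13, the protease that cleaves von Willebrand factor) had a log2 fold change of -0.40 (SE 0.06) with TMM and -0.07 with the trend removed. The bin just outside (RPL7A, SURF1, SURF2, SURF4 and STKLD1) had -0.33 (SE 0.06) and -0.01. A further 11 pairs crossed the limit and were no members.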

How the data were processed

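Micro-C libraries of SH-SY5Y cells (2 control, 2 TDP43KD) were used as 1 deposited table of contact counts between 50 kb bins. Per the submitters' processing notes, HiC-Pro and hg38 were used; other upstream steps are not given in the sources used here. The deposited counts are whole numbers and not normalized. The deposited log2 fold changes and log2 abundances, F scores, p-values and adjusted p-values are the authors' own; the log2 fold changes matched a fit with loess offsets (correlation over 89239 pairs above 0.99, largest gap 0.00311). The members and gene lists were chosen with earlier results of these data known.

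All 89239 pairs were fitted with edgeR 4.0.16 (R 4.3.3; TMM, filterByExpr, which removed 0 pairs, glmQLFit and glmQLFTest, Benjamini-Hochberg, threshold 0.05); the lowest pair total was 868 counts. The biological coefficient of variation was 9.01%. The trend-removed fit used loess offsets (span 0.3). Both fits were tested on simulated data. With 2 libraries a group, calls measure only the spread between these libraries. Alternatives were DESeq2 1.42.0, scaling within distance classes, no filter, a replicate block, the authors' table, a threshold of 0.01, a moved limit and leaving out each library. Replicate numbers gave no sign of pairing (correlation of deviations of control 1 with TDP43KD 1, 0.0193), but this value alone cannot show that the samples were unpaired. The text names the 10 largest called falls between groups that did not overlap, up to 4 members per gene list by within-bin difference, DBH, NOTCH1, GRIN1, EHMT1 and CACNA1B, the 3 highest and 3 lowest bins in control and the bins at the limit; other genes were picked after their values were seen. Gene names and sequences are from RefSeq (GRCh38.p14).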

Additional observations from a re-analysis of the deposited data

How the results depend on the processing

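The direction of the counts and medians over distal 9q34 was the same under all alternatives run, and 0 pairs were called higher in each. The 207 pairs called lower became 179 with DESeq2, 192 with the trend removed, 216 with scaling within distance classes, 161 at a threshold of 0.01 and 158 with the limit moved 1 Mb towards the end; the authors' deposited table gives 191. Leaving out 1 library gave 120 (without TDP43KD 1) to 253 calls with TMM and, added after seeing the data, 50 (without TDP43KD 1) to 236 with the trend removed, with 90 without TDP43KD 2 and 120 without control 2. The median within bins, -0.46, was -0.14 without the trend and likewise -0.14 in the authors' deposited table, and ran from -0.52 to -0.39 over the libraries left out. The median between bins, -0.27, ran from -0.34 to -0.20 in the same way. At 200 kb or more it was -0.34, and -0.42 with the trend removed, -0.42 in the authors' deposited table and -0.23 with scaling within distance classes, the last because that scaling takes out the shift shared by all distant pairs; over the libraries left out it ran from -0.43 to -0.24. With a replicate block 211 pairs were called lower, and the numbers gave no sign of pairing (correlation 0.0193). At 200 kb or more the median pair had 2.54 CPM in control, so a pair not called there may still differ.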
